A study of Arabidopsis thaliana with 6 samples.

Results

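Transcripts of 10 nuclear genes for plastid chaperones, all counted among the targets or parts of the plastid unfolded protein response, were followed in Arabidopsis thaliana seedlings of the *pgp1-2* mutant and of the wild type. They are the Hsp70 genes *CPHSC70-1* (AT4G24280) and *CPHSC70-2* (AT5G49910), the Hsp100 genes *CLPB3* (AT5G15450) and *CLPC2* (AT3G48870), the chaperonin genes *CPN60A* (AT2G28000), *CPN60B1* (AT1G55490) and *CPN20* (AT5G20720), the Hsp90 gene *HSP90C* (AT2G04030), the small heat shock protein gene *HSP21* (AT4G27670), and *VIPP1* (AT1G65260). Members were found by locus: the transcript accession of each probe was matched to its locus, and the 10 loci took 19 of the 43603 probes and were 10 of 25433 loci with a probe. Of the 10 genes, 9 had a probe well above background on all 3 arrays of a group, and these 9 were among 22681 genes tested. *HSP21* was the exception.

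RNA came from whole seedlings of the Columbia-0 ecotype, with 3 arrays of *pgp1-2* and 3 of the wild type. *pgp1-2* is a mutant allele of *PGP1*, a gene for the synthase of the precursor of phosphatidylglycerol, a phospholipid of thylakoid membranes. Mutant seedlings were 21 d old (14 d in light of 30 and 7 d in light of 15 µmol photons m-2 s-1), wild-type seedlings were 14 d old (7 d in each light), all in continuous light on agar (0.8%) with sucrose (3%), so genotype and age cannot be told apart in any difference given here. The mutant is represented by 1 allele, and the labels do not say whether the arrays of a group came from separate cultures, so p-values measure only the spread between these samples, which may be technical.

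Plastids fold and refold proteins with machines of bacterial descent: Hsp70 with its co-chaperones binds unfolded chains, the barrel-shaped chaperonin Cpn60 with its lid proteins encloses them, ClpB pulls aggregates apart, and ClpC either feeds chains to the Clp protease or helps draw precursors through the import channel. When damaged proteins gather in the chloroplast, for example in Arabidopsis with an impaired Clp protease, transcripts of plastid chaperones such as *CLPB3* and *HSP21* are known to accumulate, with the heat shock factor HSFA2 as a mediator. VIPP1 is a membrane-remodelling protein needed for thylakoid formation, and in the green alga Chlamydomonas it works with plastid Hsp70.

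Signals are given as log2 of the processed intensity minus the 75th percentile of the array, which lay between 2620 and 3653 intensity units on the 6 arrays. A level of 3 on this scale is far above and a level of -6 far below that percentile, and levels of different probes are not compared. Slide 1 carried replicate 1 of each group, with 78.6% to 79.1% of spots well above background, and slide 2 carried replicates 2 and 3, with 68.5% to 70.4%. The probe of *PGP1* (AT2G39290) was well above background on none of the 3 *pgp1-2* arrays, against all 3 wild-type arrays (0.78, 0.93 and 0.73), a signal at least 226-fold higher in the wild type (limma adjusted p = 8.56e-05). Because the seedlings are bulk samples, fewer cells of a type and less RNA per cell cannot be told apart. Of 11 root marker genes, 4 passed the filter, the root stem cell genes *PLT1* and *PLT2* were well above background on no array, and the summed signal of the 4, in multiples of the 75th percentile, was 0.139 to 0.167 in *pgp1-2* and 0.201 to 0.314 in the wild type. All 10 shoot markers passed, with sums of 4.38 to 5.23 in *pgp1-2* and 4.33 to 4.99 in the wild type. Single shoot markers still differed in both directions, with log2 differences from -0.89 to 0.72. At a limma adjusted p under 0.05, 2 were called higher and 3 lower, where 27.9% of all genes were called higher and 24.5% lower. The 4 root markers did not run one way: *COBL9* differed by 1.70 (limma adjusted p = 0.0426), *CASP1*, well above background on 1 of 3 *pgp1-2* arrays, by -4.38 (limma adjusted p = 0.000409), while *WOX5* (-0.17) and *MYB36* (-0.097) were not called. Without *CASP1*, a gene of the root endodermis, the sums were 0.132 to 0.157 in *pgp1-2* and 0.0830 to 0.124 in the wild type, which is the other direction. *PGP1*, *COBL9* and *CASP1* passed the filter only through the group where they were higher. The part of organ makeup in the differences below was not tested.

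The plastid chaperones changed little and not in one direction. Of the 9 genes tested, *CLPC2* rose in *pgp1-2*, *VIPP1*, *CLPB3* and *CPHSC70-1* fell (the last pair with the opposite sign under spike-in scaling), and 5 were not called at a limma adjusted p under 0.05. The share called was 44.4%, where 52.4% of all 22681 genes were called, 27.9% higher and 24.5% lower. The groups of arrays did not overlap at 5 of the 9 genes, against 64.2% of all genes. The median log2 difference of the 9, *pgp1-2* minus wild type, was -0.19, beside a median of 0.034 over all genes.

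The size and even the sign of these small differences depended on how arrays were scaled. Relative to the spike-in probes every difference was 0.41 higher, the median of the 9 was 0.22, and *VIPP1* was the 1 gene of the 9 that was still lower. Under quantile normalization the median was 0.14, with 4 genes lower. The split of called genes moved as well: 53.2% of them were higher with the 75th percentile, 42.2% under normexp background correction, 76.4% under spike-in scaling and 83.4% when that fit also had a slide block. The median was -0.22 on slide 1 alone (1 array of each group) and -0.16 on slide 2 alone (2 arrays of each).

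**Figure D1:**
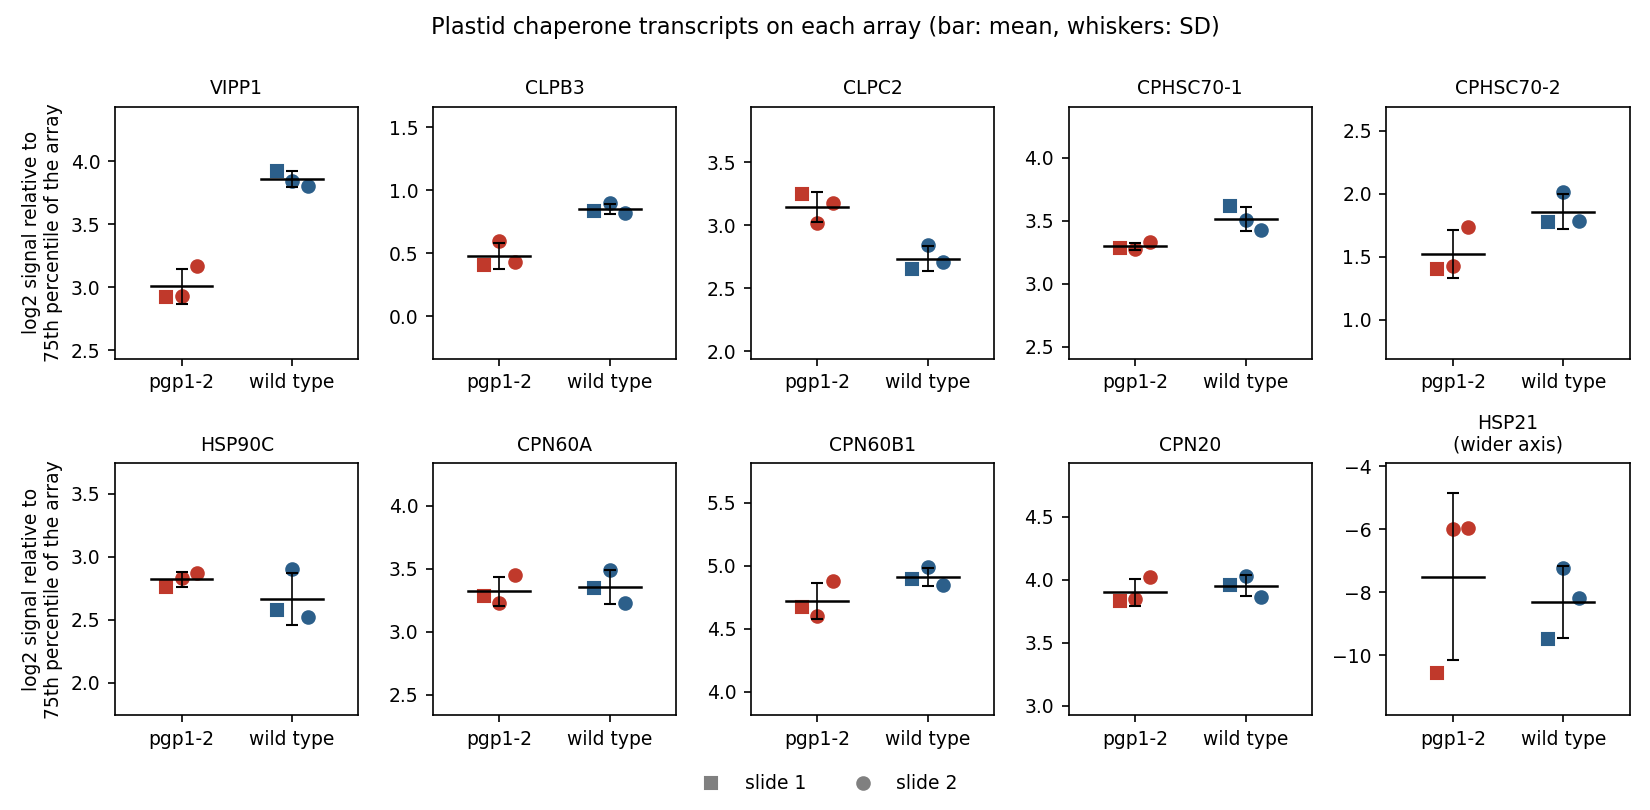
Signal of each of the 10 genes on each array, as log2 relative to the 75th percentile of the array (y axis, of equal span in every panel except that of HSP21), for pgp1-2 on the left and the wild type on the right. Squares are slide 1 and circles slide 2, bars are means of 3 arrays and whiskers are SDs. The groups stand apart for VIPP1, CLPB3, CLPC2, CPHSC70-1 and CPHSC70-2, and HSP21 was well above background on 2 pgp1-2 arrays only.

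*VIPP1*, on chromosome 1 and known in RefSeq as *PTAC4*, had the largest difference. Its single probe gave 2.92, 2.93 and 3.17 on the 3 *pgp1-2* arrays and 3.93, 3.84 and 3.80 on the 3 wild-type arrays, in the order of the replicate numbers. Every *pgp1-2* array was lower than every wild-type array, and the gap between the groups was wider than the spread within either. Before scaling, the processed intensities were 26448, 27852 and 29730 in *pgp1-2* and 39797, 45030 and 41484 in the wild type, so the order of the groups did not come from the scaling. The means were 3.01 ± 0.14 in *pgp1-2* and 3.86 ± 0.063 in the wild type (SD, n = 3). The log2 difference of -0.85 (standard error 0.090, 95% interval -1.07 to -0.63, limma adjusted p = 0.000764) made the signal 1.80-fold lower in *pgp1-2*. Of all genes tested, 19.4% differed by more. The difference was -0.77 within slide 2 and larger in size within slide 1, and it was called in each fit that left out an array. Spike-in scaling brought it to -0.44, which was not called (limma adjusted p = 0.403, and 0.0532 when the fit had a slide block).

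The disaggregase gene *CLPB3*, on chromosome 5, is the ClpB of the chloroplast and the member most closely tied to the plastid unfolded protein response. Its probe gave 0.40, 0.59 and 0.43 on the *pgp1-2* arrays, against 0.83, 0.89 and 0.82 on the wild-type arrays. The wild-type values, with an SD of 0.040, all lay above the highest mutant value. Before scaling the groups overlapped, with processed intensities of 4606, 5517 and 4448 in *pgp1-2* and 4657, 5846 and 5248 in the wild type. The log2 difference was -0.37 (standard error 0.076, limma adjusted p = 0.00809), a 1.30-fold lower signal in *pgp1-2*, and it turned to 0.038 under spike-in scaling. It was -0.43 within slide 1 and -0.35 within slide 2, and all 6 fits that left out an array called it. The call was lost within slide 2 (limma adjusted p = 0.0794), under normexp (0.0635) and under spike-in scaling (0.946, and 0.874 with a slide block).

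*HSP21*, on chromosome 4, encodes the small heat shock protein of the chloroplast, which binds unfolding proteins in heat. Its single probe was well above background on 2 of 3 *pgp1-2* arrays and on 0 of 3 wild-type arrays, so it failed the filter and was not among the genes tested. The processed intensities were 2.30, 57.9 and 52.9 on the *pgp1-2* arrays and 3.63, 21.2 and 10.2 on the wild-type arrays. The 2 measured values were those of replicates 2 and 3, both on slide 2, where the probe was dimmer and not well above background on the wild-type arrays. Without the filter the log2 difference was 0.79 (limma adjusted p = 0.803, with an adjusted p as low as 0.0307 among the alternatives that gave a value). Within slide 2 it was 1.73 (limma adjusted p = 0.0307), and without *pgp1-2* replicate 1 it was 2.32 (limma adjusted p = 0.0405). In these last fits the probe passed the filter only through the *pgp1-2* arrays, where it was high, so their p-values are no support for an increase. These last values rest on wild-type signals that were not well above background. All 6 signals lay near the bottom of the scale, between -10.56 and -5.97.

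The 2 plastid Hsp70 genes, which serve both folding and import in the stroma, were each lower on every *pgp1-2* array than on any wild-type array. *CPHSC70-1*, on chromosome 4, gave 3.28, 3.28 and 3.33 in *pgp1-2* and 3.62, 3.50 and 3.43 in the wild type. The SD of the mutant arrays was 0.030, and the groups did not overlap after scaling. Before scaling they did, with processed intensities of 33866, 35447 and 33353 in *pgp1-2* and 32126, 35713 and 31936 in the wild type. The log2 difference of -0.22 (standard error 0.072) was called close to the threshold (limma adjusted p = 0.0452), and it was 0.19 under spike-in scaling. The call was lost in 5 of the 6 fits that left out an array, with adjusted p-values of 0.0686 to 0.129, and stood only without wild-type replicate 3; it was also lost in the fit with a slide block (limma adjusted p = 0.0585). Within slide 1 the difference was -0.33 and within slide 2 it was -0.16.

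*CPHSC70-2*, on chromosome 5, gave 1.40, 1.42 and 1.74 in *pgp1-2* and 1.78, 2.02 and 1.78 in the wild type. The groups came within a small distance of touching, at *pgp1-2* replicate 3. Before scaling they overlapped, with processed intensities of 9219, 9802 and 11056 in *pgp1-2* and 8985, 12732 and 10209 in the wild type. The log2 difference was -0.34 (standard error 0.12, limma adjusted p = 0.0589), and 0.076 under spike-in scaling. A second probe of the gene gave -0.35 and was called in a test over single probes (limma adjusted p = 0.0130), and the first was called without *pgp1-2* replicate 3 (-0.44, limma adjusted p = 0.0198). The Hsp70 genes are close copies and a probe may take up signal of both. The log2 ratio of *CPHSC70-1* over *CPHSC70-2* differed by 0.12 between the groups, which overlapped (exact permutation test, two-sided, p = 0.5).

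*CLPC2*, on chromosome 3 and known in RefSeq as *HSP93-III*, encodes one of the ClpC proteins of the stroma, and it was the 1 member that rose. Its brighter probe gave 3.25, 3.02 and 3.17 in *pgp1-2* and 2.65, 2.84 and 2.71 in the wild type. Every mutant array was above every wild-type array, on both slides. The log2 difference was 0.41 (standard error 0.090, limma adjusted p = 0.0108), or 1.33-fold. It was positive under every alternative run, from 0.24 to 0.82, and was called in all 6 fits that left out an array. It was not called under normexp (limma adjusted p = 0.0548), under spike-in scaling (0.109) or within slide 2 (0.103), where the difference was 0.32 against 0.60 within slide 1. A second, dim probe gave 0.067 (limma adjusted p = 0.812 over single probes), and the mean of both probes was 0.24 and not called (limma adjusted p = 0.142).

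The close copy *CLPC1* (AT5G50920), the gene of the more abundant ClpC protein of leaves, was called in the other direction with the 75th percentile. It gave 3.91, 4.01 and 4.14 in *pgp1-2* and 4.39, 4.47 and 4.41 in the wild type, a log2 difference of -0.41 (limma adjusted p = 0.00713) that was 0.0028 under spike-in scaling. A ratio of 2 probes within an array does not depend on a scaling factor. The log2 ratio of *CLPC2* over *CLPC1* was -0.87 ± 0.19 in *pgp1-2* and -1.69 ± 0.056 in the wild type (SD, n = 3), a difference of 0.82 with no overlap between the groups. The exact permutation test, two-sided, gave p = 0.1, the smallest that 3 arrays against 3 allow, and 0.167 after adjustment over the 5 ratios tested.

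Differences of the 3 chaperonin genes were small and none was called. *CPN60A*, on chromosome 2, encodes the alpha subunit of the chaperonin that folds Rubisco large subunits, and gave 3.28, 3.23 and 3.45 in *pgp1-2* and 3.35, 3.49 and 3.23 in the wild type. The groups overlapped, and the log2 difference of -0.034 had a 95% interval of -0.27 to 0.21 (limma adjusted p = 0.791). Of all genes, 93.5% differed by more. The sign was not settled: it was 0.14 under quantile normalization and 0.38 under spike-in scaling.

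*CPN60B1*, on chromosome 1, encodes the beta subunit and gave 4.67, 4.60 and 4.88 in *pgp1-2* and 4.89, 4.99 and 4.85 in the wild type. *pgp1-2* replicate 3 lay above wild-type replicate 3, so the groups overlapped by that pair. The log2 difference was -0.19 (limma adjusted p = 0.128). It was called without *pgp1-2* replicate 3 (-0.27, limma adjusted p = 0.0382) and was positive under quantile normalization (0.21) and under spike-in scaling (0.22). A second, dimmer probe gave -0.34 (limma adjusted p = 0.185 over single probes). *CPN20*, on chromosome 5, the gene of the tandem co-chaperonin that closes the Cpn60 barrel, gave 3.83, 3.84 and 4.02 in *pgp1-2* and 3.96, 4.03 and 3.87 in the wild type. Its groups overlapped as well, with a log2 difference of -0.052 (95% interval -0.26 to 0.15, limma adjusted p = 0.628) from the first probe and the same value, -0.052, from the second.

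Ratios among the chaperonin genes moved by small amounts within arrays. The log2 ratio of *CPN60A* over *CPN60B1* was 0.16 higher in *pgp1-2* and that of *CPN60B1* over *CPN60B2*, its close copy, 0.12 higher. Neither overlapped between the groups (exact permutation test, two-sided, p = 0.1 each, 0.167 adjusted), but the first was -0.062 under quantile normalization. The second was 0.41 under quantile normalization and 0.045 with the mean of a gene's probes (exact permutation test, adjusted p = 0.7). The ratio of *CPN20* over *CPN60A* differed by -0.018 with overlapping groups (exact permutation test, p = 0.8), and its sign turned under quantile normalization (0.055).

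*HSP90C*, on chromosome 2, encodes the Hsp90 of the chloroplast stroma, which matures client proteins together with Hsp70. It was measured with 5 probes, the brightest of which gave 2.76, 2.83 and 2.87 in *pgp1-2* and 2.57, 2.90 and 2.52 in the wild type. Wild-type replicate 2 lay above all mutant arrays and the other wild-type arrays lay below them. The log2 difference was 0.15 (95% interval -0.12 to 0.43, limma adjusted p = 0.297), and over the 5 probes it was 0.067 to 0.21, with no probe called. Without wild-type replicate 2 it was 0.27 and called (limma adjusted p = 0.0460), and it was also called, at 0.57, under spike-in scaling in a fit with a slide block (limma adjusted p = 0.0257).

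**Figure D2:**
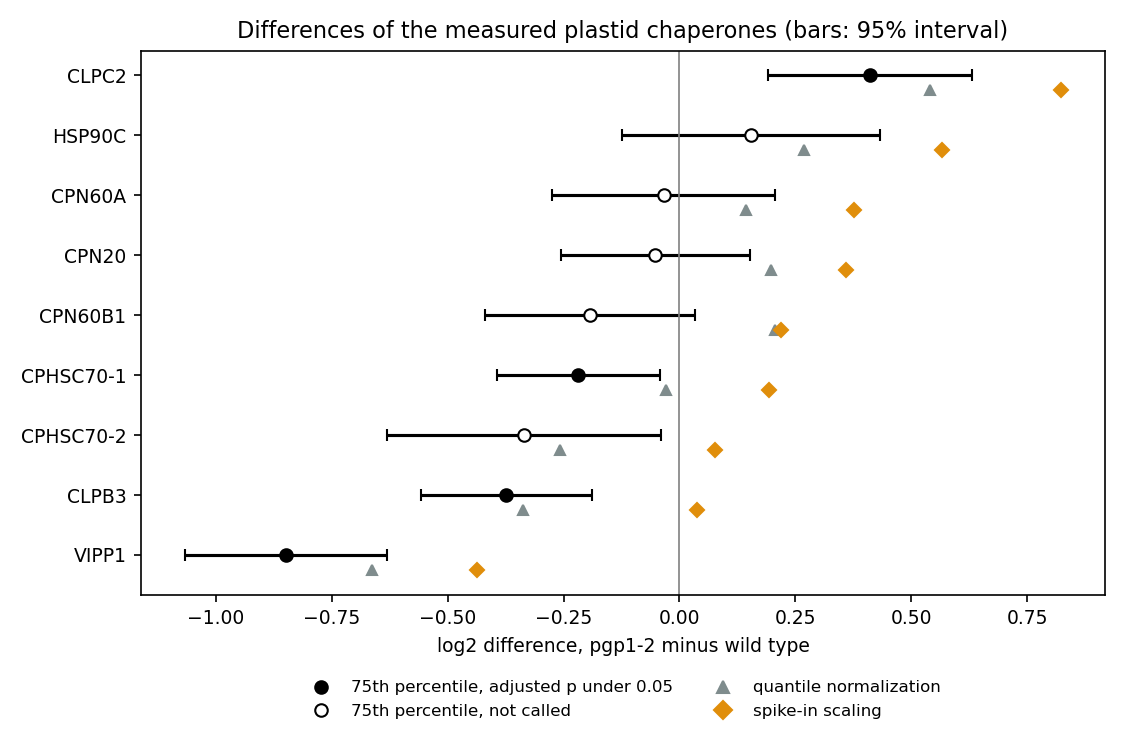
Log2 differences, pgp1-2 minus wild type (x axis), of the 9 plastid chaperones tested (y axis), with 95% intervals from limma for the scaling to the 75th percentile. Filled circles were called at an adjusted p under 0.05, triangles are the values under quantile normalization and diamonds those under spike-in scaling. The 75th percentile places 7 genes below 0 and the spike-in probes place only VIPP1 there, at -0.44.

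The genes whose signals ran most like those of 3 members were sought among the other 22680 genes, by the Euclidean distance between log2 signals of the 6 arrays after each gene was centred on its own mean. For *CLPC2* they were AT5G02450, AT5G61880 and AT1G07830, at distances of 0.053 to 0.090 and with log2 differences of 0.38, 0.41 and 0.38. For *VIPP1* they were AT3G15520, *GSTL2* and AT4G28706, at distances of 0.066 to 0.087 and with differences of -0.83, -0.87 and -0.88. For *CPN60A* they were AT2G44640, the transcript listed as TA29602_3702 and *CYP72A13*, at 0.046 to 0.058, with differences of -0.030, -0.045 and -0.026. With 6 arrays and 52.4% of genes called, such neighbours describe these arrays only.

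The remaining plastid chaperones and co-chaperones, 14 genes that all passed the filter, held both larger increases and many small decreases. Limma called 11 of them (78.6%, beside 52.4% of all genes), 3 higher and 8 lower (27.9% and 24.5% of all genes). Their median log2 difference was -0.29, or 0.12 under spike-in scaling. The increases were those of chaperonin and J-domain genes outside the abundant forms: *CPN60B3* (AT5G56500) gave 1.23, 1.42 and 1.03 in *pgp1-2* and 0.14, 0.15 and 0.16 in the wild type, a difference of 1.08 (limma adjusted p = 0.000602). *DJA4* (AT3G17830) rose by 0.90 and *CPN60A2* (AT5G18820) by 0.80, and none of the 3 changed sign under any scaling. None of the 3 overlapped between groups, but they were picked as the largest called increases, and 64.2% of all genes did not overlap. The largest decreases were those of the chaperonin gene *CPN60B4* (-0.59), the GrpE-type nucleotide exchange factor gene *CGE2* (-0.43) and *CLPC1*. The call of *CPN60B4* was lost without *pgp1-2* replicate 1, wild-type replicate 1 or wild-type replicate 2 (limma adjusted p = 0.0532, 0.0504 and 0.0540). The count of 8 lower genes was not firm: it was 4 without *pgp1-2* replicate 1, 5 without *pgp1-2* replicate 2, 4 without wild-type replicate 1, 4 without wild-type replicate 2 and 0 within slide 2.

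The plastid Clp protease, for which ClpC unfolds substrates, was lower throughout with the 75th percentile. All 12 genes tested were called lower, beside 24.5% of all genes. None overlapped between the groups, where 64.2% of all genes did not overlap. Differences under 0.41 in size turned positive with the spike-in probes. Their log2 differences ran between -0.72 and -0.30, around a median of -0.49. *CLPP3* (AT1G66670), a catalytic subunit, gave 2.07, 1.91 and 1.98 in *pgp1-2* and 2.72, 2.81 and 2.59 in the wild type, a difference of -0.72 (limma adjusted p = 0.00101). The adaptor gene *CLPS1* fell by 0.69 and the non-catalytic subunit gene *CLPR1* by 0.61. With the spike-in probes limma called 0 of the 12, at a median of -0.075, and within slide 2 it called 7.

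Chaperones of the mitochondrion and of the endoplasmic reticulum (ER) ran the other way. Of 11 mitochondrial genes tested, 7 were called higher and 1 lower (72.7% called, beside 52.4% of all genes). The median log2 difference was 0.48. *HSP60-2* (AT2G33210), a mitochondrial chaperonin gene, gave 1.59, 1.55 and 1.26 in *pgp1-2* and 0.48, 0.67 and 0.44 in the wild type, a difference of 0.94 (limma adjusted p = 0.00124). The mitochondrial Hsp70 gene *mtHSC70-1* (AT4G37910) rose by 0.92 and *HSP60-3A* by 0.74, with no overlap in either (64.2% of all genes did not overlap). The 1 decrease was that of the dim small heat shock protein gene *HSP26.5* (-0.56), which was measured on 2 of 3 *pgp1-2* arrays and was not called without *pgp1-2* replicate 1, wild-type replicate 2 or wild-type replicate 3 (limma adjusted p = 0.0550, 0.0592 and 0.0592). The list's median was positive under every alternative run, from 0.41 to 0.89.

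Of 14 ER genes tested, 12 were called higher and 1 lower (92.9% called, beside 52.4% of all genes). The median log2 difference was 0.60 (0.54 to 1.01 over the alternatives). *CRT2* (AT1G09210), for the lectin chaperone calreticulin, gave 3.00, 3.07 and 2.95 in *pgp1-2* and 2.07, 2.17 and 2.11 in the wild type, a difference of 0.89 (limma adjusted p = 0.000288), and the calnexin gene *CNX2* rose by 0.73. *BIP3* (AT1G09080), the Hsp70 gene that is induced by unfolded proteins in the ER, had the largest difference of the list, 2.32 (limma adjusted p = 0.00300). Its probe was well above background on all 3 *pgp1-2* arrays (-3.93, -4.95 and -3.94) and on 1 of 3 wild-type arrays (-6.48, -6.17 and -7.14). *BIP3* thus passed the filter only through the group where it was high, and its p-value is not independent of that filter. Under normexp the difference was 0.16 and not called (limma adjusted p = 0.849). *CRT3*, a plant-specific calreticulin gene, was the 1 decrease (-0.76).

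**Figure D3:**
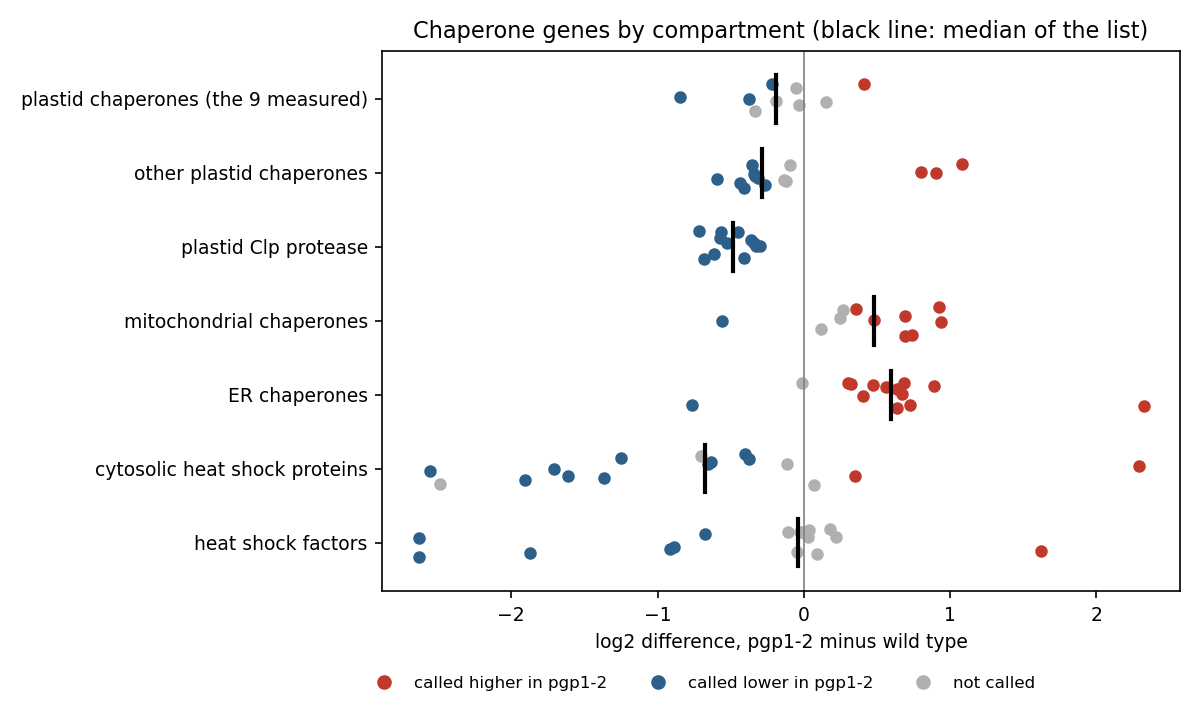
Log2 differences, pgp1-2 minus wild type (x axis), of the genes tested in each chaperone list (y axis), 1 point per gene. Red points were called higher, blue lower and grey not called by limma, and black lines are medians. Spike-in scaling would move every point to the right by 0.41. The medians were 0.48 for mitochondrial and 0.60 for ER chaperones, against -0.19 for the 9 plastid chaperones and -0.49 for the plastid Clp protease.

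These families have members in different compartments, and their differences can be set side by side. The homologs that the list rule did not name were chosen for their family after values of these data were known. Among Hsp70 genes, log2 differences were -0.22 and -0.34 for the plastid forms, 0.92 and 0.69 for the mitochondrial *mtHSC70-1* and *mtHSC70-2*, 0.67 and 0.56 for the ER genes *BIP1* and *BIP2*, which are close copies, and 2.32 for the dim *BIP3*. The 5 cytosolic Hsp70 genes ran from -1.25 for *HSP70-4* and -0.63 for *HSC70-3* to 0.35 for *HSP70-5*, with *HSC70-1* at 0.068 (limma adjusted p = 0.534) and *HSC70-2* at -0.11. Among chaperonin genes they were -0.034 and -0.19 for *CPN60A* and *CPN60B1*, against 0.48, 0.94 and 0.74 for the mitochondrial *HSP60*, *HSP60-2* and *HSP60-3A*. The other plastid chaperonin genes lay on both sides, *CPN60B2* at -0.31 and *CPN60B4* at -0.59, but *CPN60A2* at 0.80 and *CPN60B3* at 1.08, with 95% intervals that met those of the mitochondrial *HSP60-2*. Among Hsp90 genes the difference was 0.15 for *HSP90C*, 0.69 for the mitochondrial *HSP90.6*, 0.32 for the ER gene *HSP90.7* and -0.65 for the cytosolic *HSP90.2*, whose probes may take up signal of its tandem copies *HSP90.3* (-0.38) and *HSP90.4* (-0.40); the cytosolic *HSP90.1* was at -1.37. Among ClpB genes it was -0.37 for *CLPB3*, 0.36 for the mitochondrial *CLPB4* and -1.61 for the cytosolic *HSP101*. The *CLPB4* call was lost in 5 of the 6 fits that left out an array, and stood only without wild-type replicate 2. No test compared one compartment with another.

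**Figure D4:**
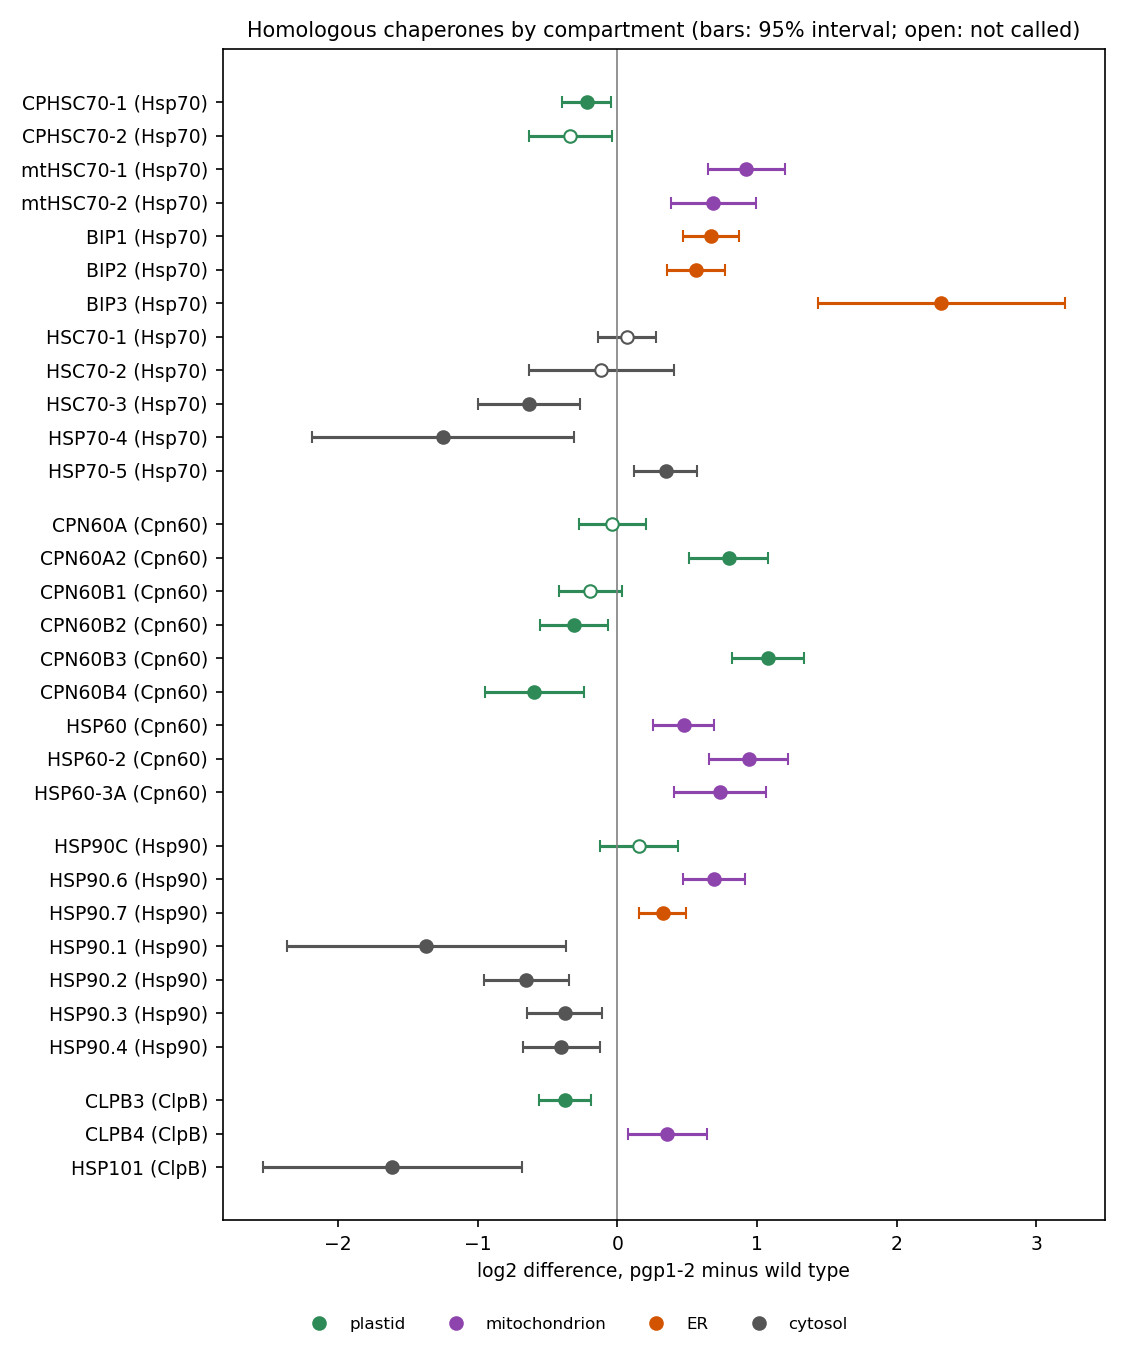
Log2 differences, pgp1-2 minus wild type (x axis), with 95% intervals, of chaperone genes grouped by family (y axis) and coloured by compartment. Open circles were not called by limma, and spike-in scaling would move every point to the right by 0.41. Plastid forms run from -0.59 to 1.08, mitochondrial forms from 0.36 to 0.94, ER forms from 0.32 to 2.32 and cytosolic forms from -1.61 to 0.35, so the plastid range overlaps each of the others.

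Heat shock factors regulate chaperone genes. Of 21 genes, 16 were tested, and limma called 1 higher and 6 lower (43.8%, beside 52.4% of all genes), with a median log2 difference of -0.037 (0.37 under spike-in scaling). *HSFA2* (AT2G26150), the factor tied to plastid protein damage in Arabidopsis, gave -2.05, -2.32 and -0.08 in *pgp1-2* and 0.40, 1.36 and 1.68 in the wild type. Its groups did not overlap, although *pgp1-2* replicate 3 lay far above the other mutant arrays. The log2 difference was -2.63 (standard error 0.65, limma adjusted p = 0.0166). The call was lost without *pgp1-2* replicate 1 (limma adjusted p = 0.0559), *pgp1-2* replicate 2 (0.0503), wild-type replicate 2 (0.0572) or wild-type replicate 3 (0.0554), with the difference at -2.52 to -2.21 in these fits.

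*HSFA3* (AT5G03720), a factor of the drought and heat response, was the 1 increase, with -1.14, -0.91 and -1.10 in *pgp1-2* and -2.65, -2.76 and -2.62 in the wild type. The groups lay far apart relative to their spread, at a log2 difference of 1.62 (limma adjusted p = 0.000138). *HSFC1* (AT3G24520) fell by 1.87 (limma adjusted p = 0.00105). *HSFA6B* also fell, by 2.63, and was well above background on 1 of 3 *pgp1-2* arrays. The count of 6 lower genes was 3 without *pgp1-2* replicate 1, 3 without wild-type replicate 2 and 2 within slide 2.

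Cytosolic heat shock genes, common targets of these factors, were mostly lower, with a wide spread within groups. Of 16 tested, limma called 10 lower and 2 higher, where 24.5% of all genes were called lower and 27.9% higher. The median log2 difference was -0.68 (-0.26 under spike-in scaling). *HSP17.8-CI* (AT1G07400), a small heat shock protein gene, gave -2.01, -1.74 and -0.37 in *pgp1-2* and 0.12, 1.25 and 2.17 in the wild type, a difference of -2.56 (limma adjusted p = 0.0168). *HSP17.6A-CI* (-1.91) and *HSP17.6B-CI* (-1.71) also fell. *HSP18.2* (AT5G59720), of the same class, rose, with -0.51, 0.27 and -0.86 in *pgp1-2* and -2.85, -2.44 and -2.69 in the wild type, a difference of 2.29 (limma adjusted p = 0.00143) that was called under every alternative with a test. *HSP70-5* was called higher at 0.35, but not without wild-type replicate 2 or 3 (limma adjusted p = 0.0747 and 0.0696), and was -0.0078 under normexp. The count of 10 lower genes was 4 without *pgp1-2* replicate 1, 4 without *pgp1-2* replicate 2, 3 without wild-type replicate 2 and 6 without wild-type replicate 3, and neither *HSP17.8-CI* nor *HSP17.6A-CI* was called in the first 3 of these fits, while *HSP17.6B-CI* was called in all.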

How the data were processed

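The 6 arrays are one-colour Agilent arrays, 1 per seedling sample. The authors quantified each with Agilent Feature Extraction 10.7.1.1, and the deposited files give, for each spot, a linear intensity after the software's own background correction and detrending (the processed signal), median intensities of spot and background, and yes-or-no flags, which are in another unit, per the file headers. The flags mark spots as well above background, as saturated or as outliers. The headers of the deposited files name no normalization across arrays. Each array held 45220 spots, 1417 of them controls; 9 to 82 outlying spots per array were removed, 197 probes were lost to these flags, and 0 spots were saturated.

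Processed signals were put on the log2 scale, each array's 75th percentile was subtracted, and spots of a probe were averaged. Probes well above background on all 3 arrays of either group were kept, and the brightest kept probe stood for a gene. Genes such as *PGP1*, *CASP1*, *COBL9*, *BIP3*, *HSFA6B* and *HSP26.5* passed only through the group where they were higher. Their p-values are not independent of the filter. Through the RefSeq TAIR10.1 gene table, 34358 probes matched 25433 loci and 9245 kept the name in the file. That assembly differs from the build in the file headers, so only names and chromosomes were taken from it. Genes were tested with limma 3.58.1 (lmFit and eBayes, two-sided, 4 residual degrees of freedom) and R 4.3.3. P-values were adjusted by the Benjamini-Hochberg method over 22681 genes; genes under 0.05 are described as called. The fit was tested on simulated data with far fewer changed genes than were called here and with no slide or scaling shift. That test therefore does not show how reliable the calls here are. Where a group had no array with a probe above background, the fold is a lower bound: the other group's mean over the mean of the probe's own signal or, where higher, the dimmest well-measured signal of the array. Ratios of pairs were compared by exact permutation tests. The number of arrays limits the precision.

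The members, lists and tests were chosen with earlier results of these data known. The text names the members, *PGP1*, the 3 largest called increases and decreases of each other chaperone or heat shock factor list, the 3 nearest profiles of the largest increase, the largest decrease and the smallest difference, and, chosen after values were seen, homologs and root markers. Alternatives were normexp background correction (offset 50, on the median spot signal, since the files read here give no mean), quantile, median and spike-in scaling (7 of 10 spike-in probe names), other filters on dim probes, the slide or replicate number as a block, each slide alone, the mean of a gene's probes, and each array left out. Same-numbered arrays deviated from their group means with correlations of 0.081, 0.12 and 0.059 over genes, of which 2 are under 0.1, so the numbers were not used as pairs; same-numbered arrays do share a slide.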

Additional observations from a re-analysis of the deposited data

How the results depend on the processing

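Small differences were limited by the scaling and by 3 arrays per group. *CLPC2* was higher and *VIPP1* lower under all alternatives run, and *VIPP1* was called in 15 of 17 fits with a test, *CLPC2* and *CLPB3* in 13, *CPHSC70-1* in 4, *CPHSC70-2* in 3, *HSP90C* in 2, *CPN60B1* in 1, and *CPN60A* and *CPN20* in 0. The next counts cover the single genes named, without *HSP21*, *PGP1*, the root markers, the nearest profiles, *HSC70-2*, *HSC70-3*, *HSP70-4*, *HSP90.1*, *HSP90.3* and *HSP90.4*. Over all alternatives, 680 differences kept their direction and, where there was a test, their side of the threshold, 98 lost a call and 8 gained one. Within slide 1, with no test, those counted as kept had the same sign and moved by under 1 SD. Another 23 changed sign and 16, within slide 1 with no test, moved by over 1 SD. The cause was not tested, apart from the shift that spike-in scaling gives every gene.

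Relative to the spike-in probes, which adds 0.41 to every difference, signs turned for *CLPB3* (0.038), *CPHSC70-1* (0.19), *CPHSC70-2* (0.076), *CPN60A* (0.38), *CPN60B1* (0.22), *CPN20* (0.36), *CLPC1* (0.0028) and *CPN60B2* (0.10) (the same values in the fit with a slide block), and the members' median was 0.22. That scaling called 4606 of all genes, 0 members higher and 0 lower, 0 other plastid chaperones and 0 Clp protease genes lower, 5 cytosolic heat shock genes lower and 3 heat shock factors lower. When that fit also had a slide block it called 2 members higher, 0 members lower, and 0 lower in the other plastid chaperone and Clp protease lists. Under quantile normalization the median was 0.14, *CPN60A* was 0.14, *CPN60B1* 0.21 and *CPN20* 0.20, the ratio of *CPN60A* over *CPN60B1* was -0.062 and that of *CPN20* over *CPN60A* 0.055, and 3 other plastid chaperones were called lower. Normexp called 6703 genes against 11884, 0 members higher and 1 lower, 4 other plastid chaperones and 7 Clp protease genes lower, with *CPN60A* at 0.064 and *HSP70-5* at -0.0078. Without a filter on dim probes 5 other plastid chaperones and 4 cytosolic heat shock genes were lower. The mean over a gene's probes called 0 members higher. Within slide 2, with 4 arrays, 6911 genes were called, 1 member higher (*HSP21*) and 1 lower (*VIPP1*), and 0 other plastid chaperones, 7 Clp protease genes and 2 heat shock factors lower. *HSP21* passed the filter there only through the *pgp1-2* arrays.

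With 1 array left out, 1 to 2 members were called higher and 2 to 4 lower. The second increase was *HSP21* without *pgp1-2* replicate 1, let in only by the *pgp1-2* arrays, and *HSP90C* without wild-type replicate 2. Counts of lower genes ranged from 4 to 8 for other plastid chaperones, 3 to 11 for cytosolic heat shock genes and 3 to 6 for heat shock factors. *CPN60A* ranged from -0.099 to 0.033 and was above 0 without *pgp1-2* replicate 2 (0.013) or wild-type replicate 2 (0.033), and the ratio of *CPN20* over *CPN60A* ranged from -0.045 to 0.0038, its highest without wild-type replicate 3.

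A fit with the replicate block called 11015 genes, and in it 4 other plastid chaperones were lower. Same-numbered arrays also share a slide, slide 1 for number 1 and slide 2 for numbers 2 and 3. Their deviations correlated at 0.081, 0.12 and 0.059, and every array correlated best with its own number, a hint from the data and not from the design.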
